A study of Mus musculus with 3 samples.

Results

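The nuclear genes of the mitochondrial respiratory chain were followed through depolarization of cultured inhibitory neurons. The group held every gene of the deposited tables whose symbol began with Nduf, Uqcr, Atp5 or Cox plus a digit, or was Sdha, Sdhb, Sdhc or Sdhd. That gave 90 of 25562 genes, on 19 chromosomes. By symbol, 39 fell to complex I, 4 to complex II, 7 to complex III, 24 to complex IV and 16 to complex V. The symbols also took in 8 assembly factors (Ndufaf1, Ndufa12l, Cox10, Cox11, Cox15, Cox17, Cox18 and Cox19), the ATP synthase factor B gene Atp5s, and Cox4nb, now called Emc8, which lies beside Cox4i1 and is not a subunit.

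The cultures, all labelled wild type (WT), were grown from C57Bl/6 mouse embryos of embryonic day 14, from the medial ganglionic eminence (MGE), where many cortical interneurons are born, and were studied on day 10 in vitro. All 3 groups were silenced overnight from day 9 with tetrodotoxin (TTX), which blocks sodium channels, and AP-5, which blocks NMDA receptors. The groups were 0 h, 1 h and 6 h of depolarization by 55 mM KCl, the 0 h group being the culture before KCl. Total RNA was depleted of ribosomal RNA and made into strand-specific libraries, 1 per time.

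The respiratory chain passes electrons from NADH (complex I) and succinate (complex II) through ubiquinone to complex III, cytochrome c and complex IV, which reduces oxygen. Complexes I, III and IV pump protons, and ATP synthase (complex V) uses the gradient to make ATP. Neurons draw most of their ATP from this chain, and ion pumping after depolarization is a large consumer of it. The subunits encoded by mitochondrial DNA were not analysed here, because the chromosomes mapped by the authors were the 19 autosomes, X and Y.

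The libraries held 8549377 to 8996897 mapped reads and 2189394 to 2480579 sense exonic reads. A single library stood for each time, so variation between cultures could not be measured and no p-value is given. Counts were scaled between libraries by TMM factors, which assume that most genes do not differ. Every ratio below compares single libraries, the later time over the earlier, and every interval is an exact 95% interval that covers counting error only; repeated reads were kept, so reads need not be separate molecules. Sums over 15 MGE interneuron markers were 5884, 5721 and 7280 scaled reads per 1000000 reads (RPM) at 0, 1 and 6 h. By their intervals 6 of the 15 were higher and 4 lower at 6 h over 0 h, beside 23.2% and 21.0% of all genes. Gad1 had 2787, 3457 and 5361 reads and Lhx6 838, 645 and 496. Markers of astrocytes and radial glia were also present, at 2272, 2392 and 2546 scaled RPM over 10 genes, led by Fabp7 and Slc1a3, while Gjb6 had 0 reads at every time. The 8 oligodendrocyte-lineage genes summed to 142, 141 and 176 scaled RPM, with Mog at 0, and the 6 genes of dividing cells to 116, 109.8 and 93.3. Excitatory neuron genes summed to 95.9, 63.3 and 75.1 scaled RPM over 8 genes, almost all of it Camk2a, with Emx1 and Neurod2 at 0. The 6 endothelial and mural genes summed to 12.9, 9.95 and 11.8 scaled RPM, with Cldn5 at 0, and the 6 microglial genes had 1, 1 and 0 reads. In such bulk RNA a change in the number of cells of a type and a change in RNA per cell cannot be told apart.

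Respiratory chain transcripts were abundant and their level moved little. The 90 genes held 21148, 26461 and 25750 sense exonic reads at 0, 1 and 6 h, which was 0.966% (0.953 to 0.979), 1.08% (1.06 to 1.09) and 1.04% (1.03 to 1.05) of all exonic reads. The alpha and beta subunits of ATP synthase, Atp5a1 and Atp5b, which form its catalytic hexamer, supplied 25.3%, 25.6% and 26.9% of those reads. Of the 90 genes, 77 reached 20 reads in at least 1 library and 13 did not, namely Ndufa12, Ndufa4l2, Ndufab1, Ndufb4, Uqcrb, Cox4i2, Cox7a1, Cox7c, Cox8b, Cox8c, Atp5g2, Atp5k and Atp5l. Counts of 3 reads or fewer in all 3 libraries were found for 8 of these, and 4 had no read at any time.

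Read numbers also depend on how much of each gene can be mapped uniquely. Many subunit genes have processed pseudogene copies, and reads that fit several places were dropped by the authors. The authors' mappability index, which is near 1 where nearly all exonic bases can be mapped and reached 1.02 for Cox8b, was below 0.5 in 27 of the 88 genes that had one (30.7%), against 18.2% of all 24156 genes that had one. The 12 genes with an index below 0.2 had a median of 18.5 exonic reads at 0 h, and the 61 genes at 0.5 or above a median of 190 reads. Levels of low-index genes are therefore uncertain, and a comparison of 1 gene between times uses the same mappable bases. Antisense exonic reads of the 90 genes numbered only 29, 21 and 22.

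Per kilobase of exon, without correction for mappability, Cox4i1, the common form of complex IV subunit 4, stood highest, at 740.0, 860.4 and 797 scaled RPM per kb at 0, 1 and 6 h. Atp5b followed with 608, 663 and 749.6 scaled RPM per kb. Ndufa4, named for complex I and now counted in complex IV, had 541, 639.8 and 676, and Atp5g3, one of the genes for the ring subunit c of ATP synthase, had 528, 613 and 709. These leaders all stood lowest at 0 h. Atp5a1 had 513, 595 and 623, Cox6a1 374, 402 and 439 and Cox6b1 294, 371 and 322 scaled RPM per kb. The small subunits Atp5e, Ndufc2 and Atp5d completed the 10 highest, at 287, 267 and 218 scaled RPM per kb at 0 h. In the authors' coverage, which divides by the mappability index, the order differed: the mean over the 3 libraries put Atp5g1, Ndufa4 and Atp5h first, Atp5g1 and Atp5h with an index near 0, and Cox4i1 below Atp5b. The median over the 77 measured genes was 95.7 scaled RPM per kb at 0 h.

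Summed by complex, exonic reads were slightly higher after KCl in all 5 complexes. Over the 90 genes the scaled sum was 1.12 times as high at 1 h as at 0 h (1.10 to 1.14) and 1.15 times at 6 h (1.13 to 1.17), against 1.00 and 1.07 for the sum of all genes. At 1 h over 0 h the ratio was 1.09 (1.05 to 1.13) for complex I, 1.14 (1.07 to 1.22) for II, 1.13 (1.07 to 1.20) for III, 1.13 (1.08 to 1.18) for IV and 1.12 (1.09 to 1.15) for V. The intervals of the 5 complexes overlapped. At 6 h over 0 h the ratio was 1.13 (1.09 to 1.17) for complex I, 1.17 (1.10 to 1.25) for II, 1.14 (1.07 to 1.21) for III, 1.09 (1.05 to 1.14) for IV and 1.20 (1.16 to 1.24) for V. ATP synthase stood highest and complex IV lowest, and their intervals did not overlap. These sums follow the symbols. That of complex IV included assembly factors and Cox4nb, and Ndufa4 was summed with complex I. The order among subunits alone was not tested. The order by symbol did not hold in the authors' coverage, where the 6 h ratio was 1.16 for V, the lowest, and 1.26 for IV. Genes with a low mappability index weigh heavily in that coverage. Atp5g1, with 32, 42 and 24 reads at an index of 0.00159, stood there at 168, 245 and 135 at 0, 1 and 6 h. Atp5g3, with 803, 1046 and 1141 reads, stood at 53.0, 72.5 and 78.8. The part of low-index genes in the change of order was not tested. Reads across splice junctions, which come from spliced RNA, numbered 3337, 4424 and 4247 over the chain genes, with ratios of 1.18 at 1 h and 1.20 at 6 h over 0 h, against 1.01 and 1.06 over all genes. Without Atp5a1 and Atp5b the ratio for ATP synthase at 6 h was 1.15. The sums of interneuron, glial and other markers given above also differed between the libraries, and their part in the result was not tested.

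None of the 75 respiratory chain genes with enough reads was called 2-fold different at 1 h. A gene was called when its scaled ratio was at least 2 or at most 0.5, its interval excluded 1 and 1 of the 2 libraries had 20 reads. A gene with 20 reads in only 1 of the 2 libraries could be called only as higher in that library. At 1 h over 0 h the count was 0 of 75 genes, where 1.58% of all 10093 genes were called higher and 1.43% lower. Intervals excluded 1, at any size, for 19 genes on the higher side and 1 on the lower side, that is 25.3% and 1.33%, beside 12.1% and 12.9% of all genes. Of 74 genes at 6 h over 0 h, 1, Ndufa12l, was called higher and 0 lower, beside 4.92% and 5.42% of all genes. Intervals excluded 1 for 22 genes higher and 3 lower, or 29.7% and 4.05%, beside 23.2% and 21.0% of all genes.

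The shift was shared by most of the genes rather than carried by a few. The ratio at 1 h over 0 h was above 1 in 56 of 75 genes (74.7%), beside 51.0% of all genes, and the median log2 ratio of the 77 measured genes was 0.16, beside 0.01. It was above 1 at 6 h over 0 h in 58 of 74 genes (78.4%), beside 50.2%, with a median of 0.14 beside 0.00. Complex I had medians of 0.10 and 0.14 at 1 and 6 h, complex II 0.20 and 0.21, complex III 0.22 and 0.20, complex IV 0.19 and 0.13, and complex V 0.16 and 0.14. Scaling by total exonic reads left the 1 h values nearly as they were but moved the 6 h median of all genes to -0.10 and that of the chain genes to 0.05, with 14 higher and 4 lower. Over all genes, 1783 were then higher and 2740 lower. The chain genes' median stood 0.15 above that of all genes at both times under TMM, total-read and median-ratio scaling.

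**Figure D1:**
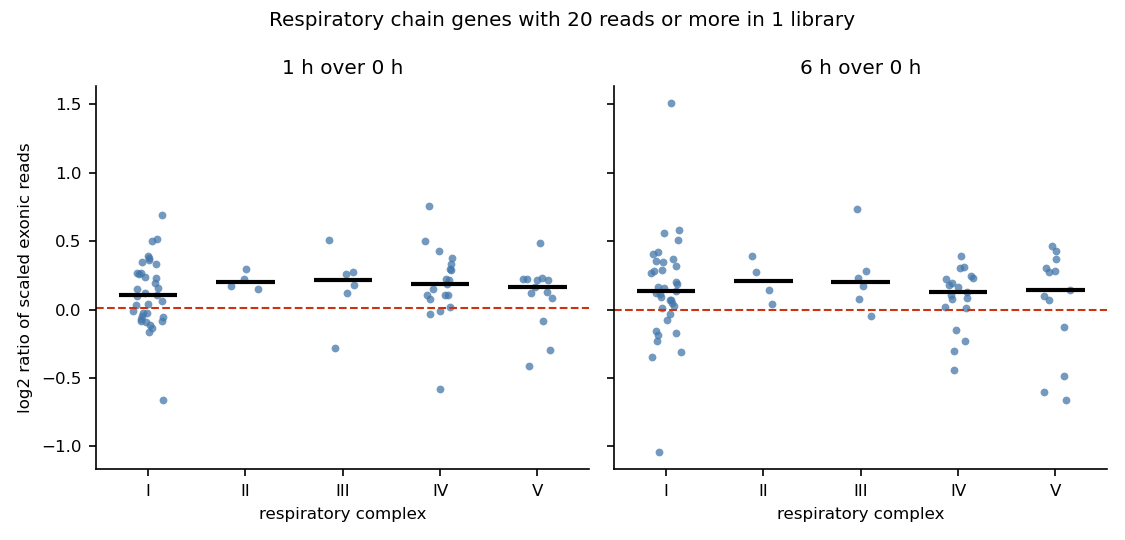
Log2 ratio of scaled sense exonic reads (vertical axis) of each measured respiratory chain gene by complex (horizontal axis), at 1 h over 0 h on the left and 6 h over 0 h on the right. Each point is 1 gene, black bars are medians of a complex, and the dashed line is the median of all measured genes; the bars lie between 0.10 and 0.22 in both panels.

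Short genes outside the chain also had medians above 0. The exons of the chain genes had a median total length of 686.5 bp, against 2940 bp for all measured genes, and 60 of the 90 had 1000 bp or less. Among genes with at least 100 reads and exons of 1000 bp or less, the chain genes had a median log2 ratio of 0.20 over 32 genes at 1 h and 0.17 over 31 genes at 6 h. All other genes of that kind had 0.17 over 160 genes and 0.16 over 153 genes. Intervals excluded 1 on the higher side in 31.2% of the chain genes and 28.8% of the others at 1 h, and in 35.5% and 38.6% at 6 h. Among genes with at least 100 reads and longer exons, the medians were 0.12 over 23 chain genes and 0.02 over 5252 others at 1 h, and 0.17 and 0.08 at 6 h. With the read minimum at 20, short chain genes stood further above other short genes, with medians of 0.19 over 45 and 0.14 over 525 genes at 1 h and 0.17 over 44 and 0.10 over 514 genes at 6 h. Intervals then excluded 1 on the higher side in 22.2% of the chain genes and 14.9% of the others at 1 h, and in 29.5% and 19.1% at 6 h. No test of these differences could be made.

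**Figure D2:**
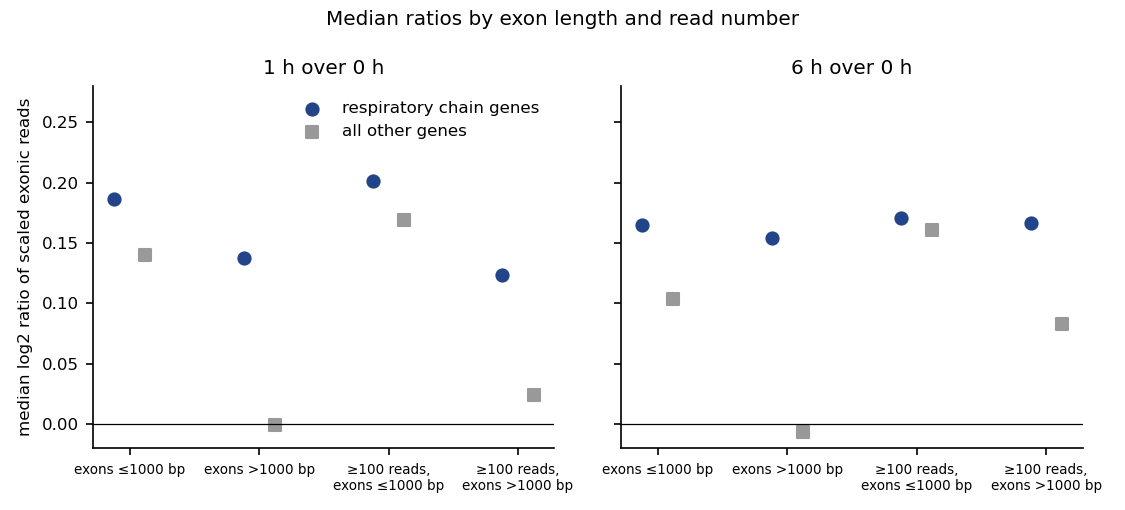
Median log2 ratio of scaled exonic reads (vertical axis) by exon length and read number (horizontal axis), at 1 h over 0 h on the left and 6 h over 0 h on the right. Circles are respiratory chain genes and squares all other genes; for genes with 100 reads or more and exons of 1000 bp or less the circles and squares stand close together, at 0.20 and 0.17 at 1 h and at 0.17 and 0.16 at 6 h.

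In complex I, the 7 core subunits encoded in the nucleus summed to 1710, 2044 and 1907 exonic reads, a ratio of 1.07 (0.999 to 1.14) at 1 h and 1.05 (0.987 to 1.13) at 6 h over 0 h. The 30 other subunits by symbol summed to 4246, 5198 and 5164 reads, with ratios of 1.09 (1.05 to 1.14) and 1.15 (1.10 to 1.20). The sum of the accessory side thus had intervals above 1 at both times and that of the core side at neither, and the core and accessory intervals overlapped. Ndufv2, an iron-sulfur subunit of the NADH-oxidizing module, had 220, 349 and 308 reads at 0, 1 and 6 h, a ratio of 1.41 (1.19 to 1.68) at 1 h and 1.32 (1.11 to 1.58) at 6 h over 0 h. It had the interval farthest above 1 at 1 h of all the chain genes. Ndufs7, a core iron-sulfur subunit beside the quinone site, had 224, 257 and 191 reads and was lower at 6 h, at 0.806 (0.661 to 0.982) times its 0 h level and 0.788 (0.650 to 0.954) times its 1 h level.

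Among accessory subunits of complex I, Ndufb5 and Ndufa1 were higher at both times. Ndufb5 had 279, 374 and 435 reads, a ratio of 1.20 (1.02 to 1.40) at 1 h and 1.47 (1.27 to 1.72) at 6 h over 0 h. Ndufa1 had 104, 153 and 165 reads, with ratios of 1.31 (1.02 to 1.70) and 1.50 (1.17 to 1.94). Both ordered the same way, lowest at 0 h and highest at 6 h. Ndufa4, kept with complex I here by its symbol, had 597, 791 and 788 reads and ratios of 1.18 (1.06 to 1.32) and 1.25 (1.12 to 1.39). Ndufc2 had 352, 412 and 416 reads and ratios of 1.04 (0.903 to 1.21) and 1.12 (0.967 to 1.29), both intervals including 1.

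The assembly factors did not share a direction at 6 h. The 8 together had 438, 547 and 463 exonic reads, 1.11 times the 0 h level at 1 h (0.980 to 1.27) and 1.00 times at 6 h (0.875 to 1.14). Ndufa12l, now Ndufaf2, an assembly factor that is a paralogue of the subunit Ndufa12, had 12, 22 and 37 reads and a ratio of 2.92 (1.49 to 6.14) at 6 h over 0 h. It was the gene called 2-fold higher, on few reads. It reached the read minimum for a call at 6 h but not at 0 h, so it could be called only as higher. Of its 37 reads at 6 h, 12 lay in exon 1 and 22 in exon 4. Cox17, a copper chaperone for complex IV, had 13, 25 and 10 reads and stood at 0.424 (0.182 to 0.914) times its 1 h level at 6 h, which was called lower. Its highest count was at 1 h, and it reached the read minimum at 1 h but not at 6 h. It could therefore be called only as lower. Cox17 overlaps another gene on the same strand, so some of its reads may belong to that gene.

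In complex II, which also works in the citric acid cycle, all 4 genes had scaled ratios above 1 at both times over 0 h. Over all genes 51.0% had a ratio above 1 at 1 h and 50.2% at 6 h. The flavoprotein Sdha, which overlaps another gene on the same strand, had 738, 919 and 945 reads, a ratio of 1.11 (1.01 to 1.23) at 1 h and 1.21 (1.10 to 1.34) at 6 h over 0 h. The iron-sulfur subunit Sdhb had 357, 451 and 388 reads, and both its ratios, 1.13 (0.978 to 1.30) and 1.03 (0.888 to 1.19), had intervals that included 1. Its count was highest at 1 h. The membrane anchor Sdhc had 297, 410 and 347 reads, with 1.23 (1.06 to 1.43) at 1 h and 1.10 (0.944 to 1.29) at 6 h. The other anchor, Sdhd, had 271, 355 and 376 reads, with 1.17 (0.995 to 1.37) at 1 h and 1.31 (1.12 to 1.54) at 6 h. Of the 4, only Sdha had intervals that excluded 1 at both times. Intervals excluded 1 on the higher side for 2 of 4 genes at 1 h and 2 of 4 at 6 h, and on the lower side for none. Over all genes the higher shares were 12.1% and 23.2%, and the lower shares 12.9% and 21.0%.

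In complex III, intervals excluded 1 on the higher side for 3 of 6 measured genes at 1 h and 3 of 6 at 6 h, and on the lower side for none. Over all genes the higher shares were 12.1% at 1 h and 23.2% at 6 h, and the lower shares 12.9% and 21.0%. Between 1 and 6 h intervals excluded 1 for 1 gene higher and 2 lower, beside 21.5% and 17.8% of all genes. Uqcrh, the acidic hinge protein that sits by the cytochrome c site, had 126, 116 and 150 reads and was higher at 6 h than at 1 h, at 1.37 (1.07 to 1.76). Uqcrq, a small subunit, had 310, 421 and 318 reads and was lower, at 0.801 (0.690 to 0.929), as was the Rieske iron-sulfur protein gene Uqcrfs1, named after its values were seen, with 437, 586 and 488 reads and 0.883 (0.781 to 0.997). The index was 0.367 for Uqcrh and 0.243 for Uqcrq.

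In complex IV, intervals excluded 1 on the higher side for 4 of 18 genes at 1 h and 3 of 17 at 6 h over 0 h, and for none on the lower side. The higher shares were 22.2% and 17.6%, beside 12.1% and 23.2% of all genes, so the 6 h share was below that of all genes. On the lower side all genes had 12.9% and 21.0%. Cox4i1 had 1126, 1468 and 1283 reads, 1.16 (1.08 to 1.26) times its 0 h level at 1 h and 1.08 (0.994 to 1.17) times at 6 h. Cox6b1, which faces the intermembrane space, had 333, 471 and 385 reads, with ratios of 1.26 (1.09 to 1.46) and 1.09 (0.942 to 1.27). Both were highest at 1 h, and their 6 h intervals included 1. Cox6c had 126, 190 and 175 reads, with ratios of 1.34 (1.07 to 1.70) and 1.31 (1.04 to 1.66). Cox6a1 had 447, 539 and 554 reads, with 1.08 (0.947 to 1.22) and 1.17 (1.03 to 1.33). Cox4nb, the gene beside Cox4i1 that is no subunit, had 234, 257 and 261 reads.

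In ATP synthase both subunits of the catalytic hexamer were higher after KCl, as were some subunits of the rotor. Atp5a1 (alpha) had 2795, 3635 and 3590 reads, a ratio of 1.16 (1.10 to 1.22) at 1 h and 1.21 (1.16 to 1.28) at 6 h over 0 h. Atp5b (beta; chr10:127520363-127527444, mm9, plus strand) had 2562, 3129 and 3338 reads, with 1.09 (1.03 to 1.15) and 1.23 (1.17 to 1.30). Atp5g3 had 803, 1046 and 1141 reads, with 1.16 (1.06 to 1.28) and 1.34 (1.23 to 1.47). All 3 were lowest at 0 h, and Atp5b and Atp5g3 were highest at 6 h. Atp5d (delta) had 427, 563 and 582 reads and a 6 h ratio of 1.29 (1.14 to 1.46), while Atp5e (epsilon) had 266, 326 and 257 reads and 0.914 (0.767 to 1.09).

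Atp5c1, the gamma subunit that forms the central shaft of the motor (chr2:9977661-10002056, mm9, minus strand), went the other way. It had 237, 199 and 165 exonic reads at 0, 1 and 6 h, the highest at 0 h and the lowest at 6 h. Its ratio was 0.749 (0.617 to 0.908) at 1 h and 0.658 (0.536 to 0.807) at 6 h over 0 h, and it was the only chain gene with an interval below 1 at 1 h. Reads across splice junctions, which are part of the exonic count, numbered 82, 75 and 52. The reads were spread along the gene: exon 5 had 40, 36 and 38, exon 7 had 33, 26 and 25, exon 3 had 24, 17 and 12, and exon 4 had 24, 17 and 15. Its intronic reads stood at 184, 134 and 228, not lowest at 6 h. The mappability index of Atp5c1 was 0.325, so its reads came from a small part of its exonic bases. Atp5s, encoding factor B, had 51, 54 and 34 reads and was also lower at 6 h, at 0.630 (0.396 to 0.992).

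**Figure D3:**
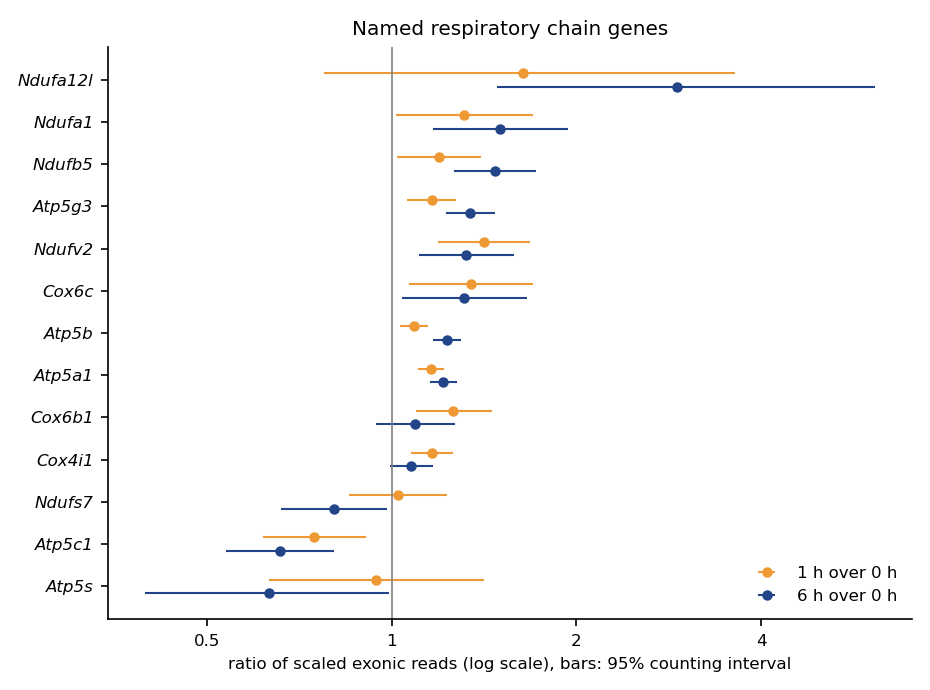
Ratio of scaled exonic reads (horizontal axis, log scale) for the 13 genes whose intervals lay farthest from 1 at 1 h or 6 h over 0 h (vertical axis, sorted by the 6 h ratio). Points are ratios at 1 h (orange) and 6 h (blue) and bars are 95% counting intervals; Ndufa12l is highest at 2.92 with a wide bar, and Atp5c1 lies below 1 at both times.

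Between 1 and 6 h the chain genes as a group differed little. The scaled sum at 6 h over 1 h was 1.03 (1.01 to 1.05), against 1.07 for all genes, and it was 0.964 when scaled by total exonic reads. Of 77 genes 0 were called 2-fold higher and 2 lower (Ndufb3 and Cox17), beside 4.17% and 4.63% of all genes. Ndufb3, an accessory subunit of complex I with an index of 0.241, had 18, 22 and 9 reads, a ratio of 0.434 (0.176 to 0.980). Ndufb3 and Cox17 reached the read minimum at 1 h but not at 6 h, so both could be called only as lower. Intervals excluded 1 for 8 genes higher and 10 lower, or 10.4% and 13.0%, beside 21.5% and 17.8% of all genes. Scaling by total exonic reads gave 3 higher and 16 lower, beside 1586 higher and 2478 lower over all genes.

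The higher genes at 6 h over 1 h were led by Ndufa13, also known as the cell death regulator Grim19, with 132, 143 and 187 reads and a ratio of 1.39 (1.11 to 1.74). Ndufb8 had 190, 203 and 246 reads and 1.28 (1.06 to 1.56), Ndufb5 1.23 (1.07 to 1.42) and Atp5b 1.13 (1.08 to 1.19). Among the lower genes, Ndufa8 had 190, 274 and 202 reads and a ratio of 0.782 (0.649 to 0.941), and Ndufa3 151, 189 and 136 reads and 0.763 (0.608 to 0.956). Complex I thus held genes on both sides.

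For 7 subunits the genome carries more than 1 related gene, in some families a common gene and others used in particular tissues. The alternative forms of Cox4, Cox6a, Cox6b, Cox8 and Ndufa4 supplied few or no reads. Cox4i2, the lung-enriched form of subunit 4, had 0 reads at each time beside 1126, 1468 and 1283 for Cox4i1, which allows a share of up to 0.327%, 0.251% and 0.287% of the pair's reads at the upper interval bound. Ndufa4l2, a hypoxia-induced homologue, likewise had 0 reads beside 597, 791 and 788 for Ndufa4. The heart and muscle forms Cox7a1 and Cox8b had 3, 1 and 0 reads and 2, 0 and 1 reads, and the testis form Cox8c had none. All of these had an index of 0.889 or above, so their exons could be mapped.

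A small but steady part came from 2 tissue forms. Cox6a2, the heart and muscle form of subunit 6a, had 24, 33 and 27 reads, and per kilobase 4.16%, 4.72% and 3.79% of the pair Cox6a1 and Cox6a2. Cox6b2, the testis form of subunit 6b, had 15, 22 and 16 reads, and 3.63%, 3.76% and 3.36% of its pair per kilobase. Counting intervals were computed for the plain shares of reads only. These shares were 5.10%, 5.77% and 4.65% for Cox6a2 and 4.31%, 4.46% and 3.99% for Cox6b2. For each gene their intervals overlapped between times. Cox6a1 and Cox6b1 had indices of 0.561 and 0.594 and the tissue forms of 0.926 and 0.937, so the shares of the tissue forms are upper values on this account. Cox7a2 supplied 84.9%, 82.9% and 85.9% of the 7a family per kilobase, beside 13.3%, 16.6% and 14.1% for Cox7a2l, which is tied to supercomplexes and had an index of 0.118. In the authors' coverage, corrected for mappability, Cox7a2 led only narrowly at 0 h and stood below Cox7a2l at 1 and 6 h. Cox7a2 stood at 21.4, 27.9 and 28.05 and Cox7a2l at 21.0, 37.1 and 28.3 at 0, 1 and 6 h. Of the ring subunit genes, Atp5g3 had 803, 1046 and 1141 reads, Atp5g1 32, 42 and 24 with an index of 0.00159, and Atp5g2 none with no index given, so that the 3 cannot be compared.

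**Figure D4:**
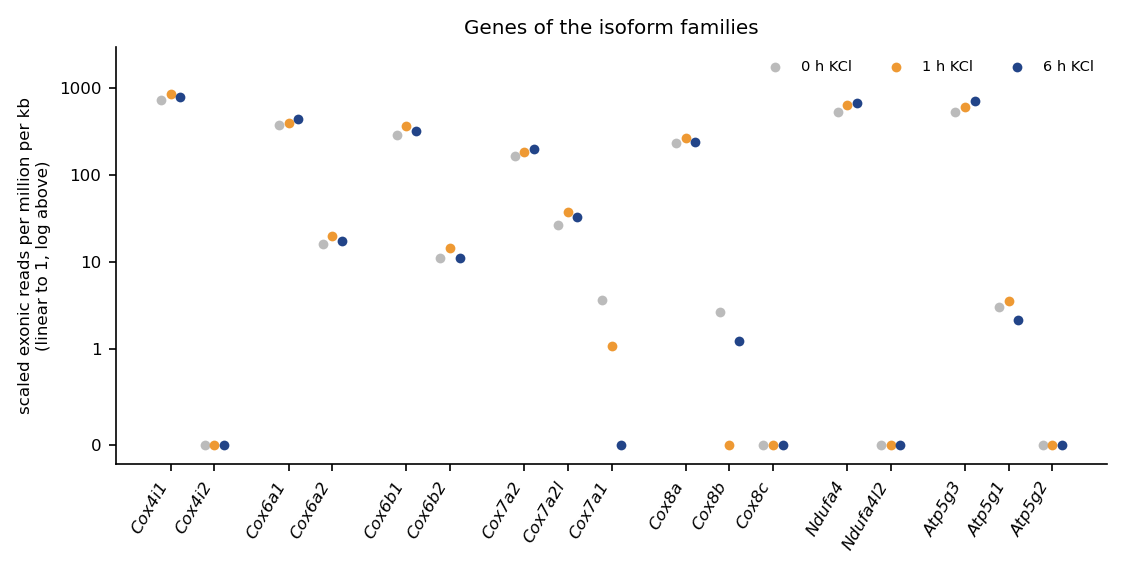
Scaled exonic RPM per kb (vertical axis, linear to 1 and logarithmic above) of the genes of 7 isoform families (horizontal axis) at 0 h (grey), 1 h (orange) and 6 h (blue). Each point is 1 library; Cox4i2, Cox8c, Ndufa4l2 and Atp5g2 lie at 0 at every time, and Cox6a2 and Cox6b2 lie between 11.1 and 19.9, far below Cox6a1 and Cox6b1.

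Intronic reads, which in total RNA come largely from unspliced transcripts and excised introns, were few in these genes and dipped at 1 h. The 90 genes had 4329, 3945 and 4675 sense intronic reads, or 17.0%, 13.0% and 15.4% of their exonic and intronic reads together, against 49.2%, 42.1% and 45.8% over all genes. Scaled by the exonic TMM factors, the sum at 1 h was 0.813 times that at 0 h (0.778 to 0.849), against 0.752 over all genes. At 6 h it was 1.02 times the 0 h sum (0.980 to 1.06) and 1.26 times the 1 h sum (1.20 to 1.31), against 0.933 and 1.24 over all genes. Of 60 genes with 20 intronic reads, 83.3% had a ratio below 1 at 1 h over 0 h, against 82.9% of 8143 genes, and the median log2 ratio was -0.54, against -0.66. The dip was thus not confined to the chain genes. With intronic counts scaled by total intronic reads or by their own TMM factors the chain genes stood at 1.08 and 1.24 at 1 h over 0 h, above 1.

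Among genes with at least 20 intronic reads in 1 of the libraries compared, single genes departed from this course. Atp5d had 20, 69 and 33 intronic reads at 0, 1 and 6 h, a ratio of 3.08 (1.85 to 5.34) at 1 h over 0 h beside an exonic ratio of 1.18. Cox5a, a matrix-side subunit of complex IV, had 27, 53 and 17 intronic reads and 1.75 (1.08 to 2.89) at 1 h. Of these, 17, 46 and 9 lay in intron 1, and no other intron of Cox5a had its most reads at 1 h. Ndufb8 had 13, 24 and 22 and 1.65 (0.806 to 3.52), an interval that includes 1. Atp5d and Cox5a peaked at 1 h, when the sum over the chain genes was at its lowest. The lowest ratios at 1 h over 0 h were those of Cox17, with 44, 8 and 16 intronic reads and 0.162 (0.0659 to 0.348), of Cox15, a heme A synthesis enzyme, with 27, 7 and 12 and 0.231 (0.0850 to 0.544), and of Ndufb4, with 25, 7 and 22 and 0.250 (0.0912 to 0.594).

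With the same minimum of 20 reads, the highest intronic ratios at 6 h over 0 h were those of Uqcrh, with 14, 24 and 42 reads and 2.84 (1.52 to 5.62), of Ndufa6, with 18, 24 and 42 and 2.21 (1.24 to 4.07), and of Sdhc, with 31, 25 and 67 and 2.04 (1.32 to 3.24). Their exonic ratios at 6 h over 0 h were 1.13, 1.10 and 1.10. Among the low intronic ratios at that time were those of Cox17 at 0.344 (0.181 to 0.622) and of Cox15 at 0.420 (0.194 to 0.858). The highest at 6 h over 1 h with that minimum were Cox4nb, with 22, 7 and 25 reads and 3.79 (1.59 to 10.4), Ndufb4 at 3.33 (1.38 to 9.24) and Sdhc at 2.84 (1.77 to 4.70). The lowest were Cox5a at 0.340 (0.185 to 0.597), Atp5d at 0.507 (0.324 to 0.779) and Sdhd, with 23, 26 and 16 reads, at 0.653 (0.327 to 1.26).

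A large part of the intronic reads lay in 5 introns that hold an annotated short RNA on the same strand. These 5 of 390 introns, 2 in Atp5b and 1 each in Atp5c1, Cox7c and Ndufa10, held 26.5%, 36.4% and 29.1% of the genes' intronic reads at 0, 1 and 6 h. Atp5b had 669, 1010 and 864 intronic reads. Intron 2, 222 bp long, held 363, 542 and 492 of them, and intron 4, 229 bp long, held 251, 404 and 310. Over the 3 libraries these were 54.9% and 37.9% of the gene's intronic reads, and the other 7 introns held few. In Cox7c, singled out after its values were seen, intron 2 (818 bp) held 439, 446 and 469 reads, beside only 5, 7 and 7 exonic reads at an index of 0.101. The 3 introns moved unlike the remaining 387 introns of the chain genes. Intron 2 of Atp5b stood at 1.33 (1.16 to 1.53) and intron 4 at 1.44 (1.22 to 1.69) times their 0 h levels at 1 h, intron 2 of Cox7c at 0.906 (0.792 to 1.04), and the remaining introns at 0.695 (0.660 to 0.732). Intron 1 of Atp5c1 held 85, 39 and 89 reads and intron 4 of Ndufa10 8, 4 and 2.

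The short RNAs are shown because they lie in the introns that hold those reads. Reads were counted per whole intron, so their place within it is not known. Intron 2 of Atp5b holds Snord59a, a C/D box small nucleolar RNA, of a class that guides methylation of ribosomal RNA, at chr10:128084143-128084216. Intron 4 holds Mir677, at chr10:128085286-128085363, which GENCODE lists both as a microRNA and as a small nucleolar RNA. Both lie on the plus strand. Intron 2 of Cox7c holds Gm22574, a 60-base transcript whose class GENCODE leaves to be settled by experiment, on the minus strand at chr13:86044989-86045048. Coordinates are on GRCm38, with introns paired between builds by length. Capitals mark a run of 32 bases that Snord59a and Mir677 share with 1 mismatch.
Snord59a: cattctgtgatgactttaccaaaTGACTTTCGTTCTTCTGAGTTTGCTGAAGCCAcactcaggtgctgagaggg
Mir677: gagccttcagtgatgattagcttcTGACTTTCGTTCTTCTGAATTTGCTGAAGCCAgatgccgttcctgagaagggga
Gm22574: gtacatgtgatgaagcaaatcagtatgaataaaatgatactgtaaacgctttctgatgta

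**Figure D5:**
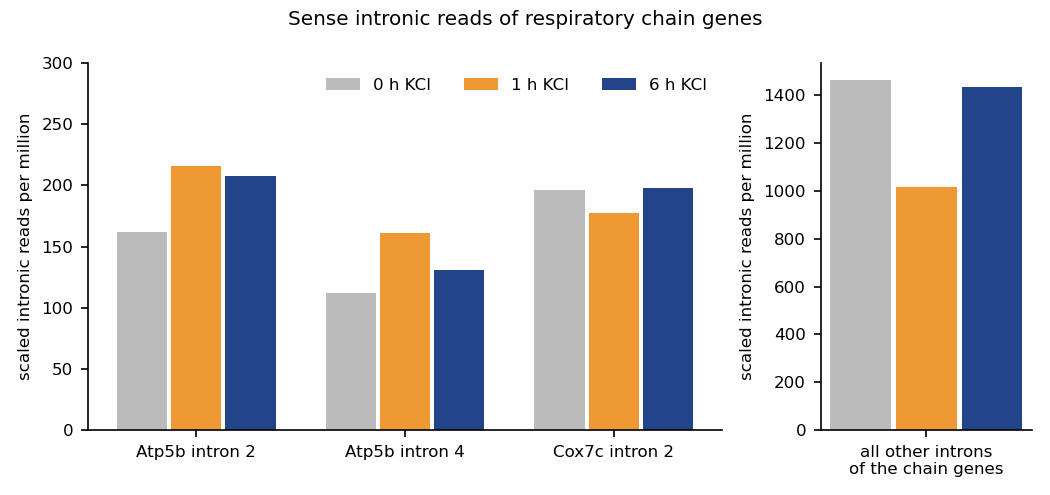
Scaled sense intronic RPM (vertical axes) in intron 2 and intron 4 of Atp5b and intron 2 of Cox7c on the left, and in the 387 other introns of the chain genes on the right, with bars for 0 h (grey), 1 h (orange) and 6 h (blue). The other introns dip at 1 h, at 0.695 times their 0 h level, while both Atp5b introns are highest at 1 h.

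Promoters of respiratory chain genes are known for sites of nuclear respiratory factor 1 (NRF-1) and of ETS factors such as GABP. RefSeq promoter windows on GRCm38.p6, which run from 250 bases before to 50 after a gene's start, were matched by gene identifier for 72 of the 90 genes, in 77 windows. The NRF-1 core (GCGCA directly followed by TGCGC, 10 letters in all) was found in 5 windows, or 6.49%, beside 0.971% of all 32851 windows and 2.15% of the windows of genes with 20 reads. The ETS core CCGGAAG was found in 24.7% of the chain genes' windows, beside 8.86% and 17.3%. CCAAT was found in 39.0%, beside 37.4% and 37.4%. Both strands were searched for all 3 motifs. A match is a description of letters and says nothing of binding in these cells.

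The windows of Atp5b and Atp5c1 are printed because these subunits of the same catalytic head differed in direction at both times. Atp5b had 5 matches of CCAAT, at -222, -188, -164, -147 and -75 from the start, the one at -164 on the opposite strand, and neither of the other motifs. Atp5c1 had 1, on the opposite strand, at -162 in the window shown. Capitals mark CCAAT or its reverse complement ATTGG, and the sequences run in the direction of the gene, at chr10:128083057-128083356 on the plus strand and chr2:10080461-10080760 on the minus strand.
Atp5b: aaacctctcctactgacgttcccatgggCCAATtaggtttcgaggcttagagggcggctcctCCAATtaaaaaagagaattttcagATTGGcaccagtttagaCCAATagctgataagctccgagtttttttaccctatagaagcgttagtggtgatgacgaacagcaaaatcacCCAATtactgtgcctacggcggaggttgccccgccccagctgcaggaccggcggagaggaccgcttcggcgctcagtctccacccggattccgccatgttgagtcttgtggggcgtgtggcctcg
Atp5c1: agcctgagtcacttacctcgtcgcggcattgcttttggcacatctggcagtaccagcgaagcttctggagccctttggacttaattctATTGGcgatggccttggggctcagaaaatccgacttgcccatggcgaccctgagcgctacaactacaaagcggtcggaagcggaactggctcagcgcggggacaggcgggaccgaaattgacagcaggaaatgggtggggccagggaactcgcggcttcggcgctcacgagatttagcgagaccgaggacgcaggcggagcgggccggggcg

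Around the chain, genes of the citric acid cycle and the pyruvate dehydrogenase complex, which supply its NADH and succinate, had a median log2 ratio of 0.14 at 1 h and 0.14 at 6 h over 0 h in 23 measured of 25 genes. Intervals excluded 1 for 9 genes higher and 2 lower at 1 h and for 10 higher and 4 lower at 6 h, where 12.1% and 12.9% of all genes did so at 1 h and 23.2% and 21.0% at 6 h. Pdk3, a kinase that switches pyruvate dehydrogenase off, had 92, 97 and 215 reads and was called higher at 6 h, at 2.21 (1.72 to 2.85) times its 0 h level. Its relative Pdk2 had 70, 90 and 40 reads, 0.540 (0.357 to 0.808) times the 0 h level at 6 h and called lower against 1 h. The 2 kinase genes thus moved to opposite sides. In this list 1 gene was called higher and 0 lower at 6 h over 0 h, where 4.92% and 5.42% of all genes were. At 6 h over 1 h 1 was called higher and 1 lower, where 4.17% and 4.63% of all genes were. Pdhx, a structural part of the complex, had 151, 242 and 199 reads and the highest ratio at 1 h, 1.43 (1.16 to 1.76), and Idh2, the NADP-linked isocitrate dehydrogenase, the lowest, at 0.747 (0.561 to 0.993) with 111, 93 and 130 reads.

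Genes that hand electrons to ubiquinone, make it, or encode cytochrome c had medians of 0.09 at 1 h and -0.29 at 6 h over 0 h, in 16 measured of 17. At 6 h 2 were called lower and 0 higher, where 5.42% and 4.92% of all genes were. Dhodh, the pyrimidine synthesis enzyme that reduces ubiquinone, had 43, 41 and 14 reads, 0.308 (0.156 to 0.574) times its 0 h level. Coq9, a ubiquinone synthesis protein, had 103, 120 and 40 reads, 0.367 (0.248 to 0.534) times. Their counts at 1 h were close to those at 0 h. Dhodh was below the read minimum at 6 h, so it could be called only as lower. Against 1 h 0 were called higher and 4 lower, Coq3 and Etfb among them, where 4.17% and 4.63% of all genes were. Coq5 had the highest ratio against 1 h, 1.40 (1.06 to 1.86). Assembly factors outside the symbol rule had medians of 0.13 and 0.00 in 19 measured of 22 found. At 6 h over 0 h 0 were called higher and 2 lower, 0610010E21Rik and Tmem126b, where 4.92% and 5.42% of all genes were. Of the 2, 0610010E21Rik was below the read minimum at 6 h, so it could be called only as lower. Tmem126b, a complex I assembly factor, had 48, 75 and 23 reads and stood at 6 h at 0.453 (0.263 to 0.760) times its 0 h level. Ttc19, which acts in complex III, had 180, 209 and 304 reads and the highest 6 h ratio of that list, 1.60 (1.32 to 1.93).

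Regulators of mitochondrial biogenesis had medians of -0.11 at 1 h and 0.08 at 6 h over 0 h, in 19 measured of 23. At 6 h over 0 h 0 were called higher and 2 lower, where 4.92% and 5.42% of all genes were. Intervals excluded 1 for 6 higher and 3 lower, where 23.2% and 21.0% of all genes did so. Nrf1, which encodes the factor NRF-1, had 92, 133 and 180 reads, 1.85 (1.43 to 2.41) times its 0 h level at 6 h, the highest of the list though under 2-fold. Tfb1m, an rRNA methyltransferase of mitochondria, had 20, 33 and 6 reads and was called lower at 6 h, at 0.284 (0.0932 to 0.732) times. Ppargc1b, a coactivator of respiratory genes, had 20, 23 and 8 reads and 0.378 (0.144 to 0.897) times. Both rest on few reads and reached the read minimum for a call at 0 h but not at 6 h. They could therefore be called only as lower. Against 1 h, 0 were called higher and 3 lower, where 4.17% and 4.63% of all genes were. The 3 were Tfb1m, Ppargc1b and Sirt1. Sirt1, a deacetylase that acts on a related coactivator, had 49, 96 and 35 reads.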

How the data were processed

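The authors sequenced total RNA on the ABi SOLiD platform. Per the labels, 35 bp reads with at most 3 mismatches and a single best place on mm9 or a RefSeq splice library were kept, repeated reads included. No aligner name is stated in these sources. The deposited tables hold counts of sense and antisense reads per gene, exon and intron. The exonic count includes splice-junction reads in 100.0% of genes. They also hold the authors' coverage signal, deposited as read bases per exonic base scaled to 10000000 mapped reads and divided by the mappability index.

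From the counts, TMM factors (edgeR 4.0.16, R 4.3.3) scaled sense exonic counts, and Python 3.11.15 with scipy 1.17.1 computed ratios with exact Clopper-Pearson 95% intervals, tested on simulated data. Medians used 0.5 reads as pseudocount and genes with 20 reads in 1 of the 3 libraries. With 1 library per time no model was fitted.

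The members and lists were chosen with earlier results of these data known. Genes named were those whose intervals lay farthest from 1 (up to 5 per comparison and direction), those called 2-fold, the 10 highest per kilobase, the Sdh genes, the isoform families and the 3 highest and lowest intronic ratios per comparison; from other lists, the highest, the lowest and the called genes. The value of 1 gene that this rule names is not reported here. Alternatives were total-read and median-ratio scaling, the authors' coverage, other read minima and pseudocounts, intronic scaling, and subsets of genes or introns, the subsets chosen after seeing the data. Promoters and short RNAs came from RefSeq (GRCm38.p6) and GENCODE (GRCm38).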

Additional observations from a re-analysis of the deposited data

How the results depend on the processing

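No paired analysis was possible because each time had 1 library. For the same reason no library could be left out. Median-ratio scaling moved no sum beyond its counting interval and no count by more than 1.5 times. Neither it nor a pseudocount of 1 read moved a median log2 ratio by 0.1 or more. Under median-ratio scaling the medians were 0.17 at 1 h and 0.16 at 6 h over 0 h, beside 0.16 and 0.14 under TMM. With the authors' coverage the medians were 0.41 at 1 h and 0.29 at 6 h over 0 h, but those of all genes were 0.23 and 0.14. The sums were then 1.34 for all genes of the chain and 1.25, 1.36, 1.57, 1.39 and 1.33 for complexes I to V at 1 h over 0 h, and 1.24, 1.24, 1.27, 1.50, 1.26 and 1.16 at 6 h over 0 h. Low-index genes weigh heavily in these sums. In complex III, Uqcrb, with 3, 11 and 10 reads at an index of 0.0149, had a coverage of 26.6, 66.2 and 58.2 at 0, 1 and 6 h. At 6 h over 1 h the sums in the authors' coverage were 0.925 for all, 0.993 for I, 0.934 for II, 0.905 for IV and 0.872 for V, which are below 1, where the TMM values for all, I, II and V were above it. Scaled by total exonic reads, the sums at 6 h over 0 h were 1.07 for all and 1.05, 1.09, 1.06, 1.02 and 1.12 for I to V. At 6 h over 1 h they were 0.964 for all, 0.967 for I, 0.954 for II, 0.938 for III, 0.903 for IV and 1.00 for V, so that all, I, II and III fell below 1. The cause was not tested. Without Atp5a1 and Atp5b the sum of all was 1.13 and that of V 1.15 at 6 h over 0 h, and 1.01 and 1.04 at 6 h over 1 h. The 2-fold count at 6 h over 0 h was 0 with a minimum of 50 reads and 0 without assembly factors and genes of no complex. At 6 h over 1 h it was 0 with 50 reads, 1 for genes with a mappability index of 0.5 or more, and 1 without assembly factors. The intronic sum depended on its scale. With intronic TMM factors it was 1.24, 1.21 and 0.976 at 1 h over 0 h, 6 h over 0 h and 6 h over 1 h, and with total intronic reads 1.08, 1.09 and 1.01, so that the dip at 1 h changed direction under both. Without introns holding a short RNA it was 0.703 at 1 h over 0 h and 1.40 at 6 h over 1 h. Without Atp5b and Cox7c it was 0.688, 0.979 and 1.42.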

Other observations

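Of 32 genes for mitochondrial carriers, import and cristae, 26 were measured. Their median log2 ratio was 0.23 at 1 h and 0.24 at 6 h over 0 h, beside 0.01 and 0.00 over all genes. At 6 h intervals excluded 1 for 12 genes higher and 4 lower, and 3 genes were called 2-fold higher, where 23.2%, 21.0% and 4.92% of all genes were. These were Slc25a5, an ADP/ATP carrier, with 15, 27 and 36 reads at 0, 1 and 6 h and 2.27 (1.21 to 4.46) times its 0 h level, the outer membrane channel gene Vdac3, with 11, 18 and 25 reads and 2.15 (1.02 to 4.84), and the carrier gene Slc25a14, with 44, 70 and 94 reads and 2.02 (1.40 to 2.96). Slc25a5 and Vdac3 had few reads and reached the read minimum for a call at 6 h but not at 0 h. These 2 genes could therefore be called only as higher, while Slc25a14 reached the minimum at both times. The ratio was lowest for Timm44, of the import motor, with 92, 70 and 57 reads and 0.586 (0.413 to 0.824).

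Mitochondrial and cytosolic ribosomal protein genes differed in the direction of their medians at 6 h over 0 h; the difference was not tested. Of 75 mitochondrial ribosomal genes, 66 were measured, with medians of 0.13 at 1 h and -0.08 at 6 h. At 6 h intervals excluded 1 for 4 of 64 genes higher and 10 lower, where 23.2% and 21.0% of all genes did so, and Mrpl10, with 98, 124 and 51 reads, stood at 0.492 (0.344 to 0.697) times its 0 h level. Of 77 cytosolic ribosomal genes only 25 were measured, with medians of 0.21 and 0.25. At 6 h 4 of 24 were called 2-fold higher and 0 lower, where 4.92% and 5.42% of all genes were, led by Rpl30, with 8, 24 and 32 reads and 3.78 (1.71 to 9.50). Of these 4, Rpl30, Rpl7a and Rplp2 had few reads and reached the read minimum for a call at 6 h but not at 0 h. They could therefore be called only as higher.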
